A study of Mus musculus with 40 samples.

Results

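Of the 24062 genes counted by RNA-Seq in mouse embryonic fibroblasts (MEFs) with and without Sall2, 29 genes of glia and of the neural crest were followed across genotypes and with doxorubicin. They were picked by symbol from a fixed list of 5 transcription factors, 6 receptors, 9 glial proteins, 3 proteins of myelin, 2 adhesion molecules, 3 secreted or enzymatic proteins and 1 enzyme of pigment cells. The list was chosen with earlier results of these data known, so that its shares set beside those of all genes are descriptive. All 29 symbols were found in the table. Dct, the pigment cell enzyme, had 0 or 1 counts in every library and was not tested, so that 28 genes entered the comparison over all groups.

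The neural crest is a transient population of embryonic cells that leaves the dorsal neural tube and gives rise to peripheral neurons, Schwann cells, other peripheral glia and pigment cells. SOX10 marks the crest and is kept in its glia. With FOXD3 and the neuregulin receptor ERBB3 it marks Schwann cell precursors, which travel along nerves and also give rise to melanoblasts. MEF cultures are grown from dispersed embryonic tissue and consist mainly of fibroblasts.

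Primary MEFs came from embryos at 13.5 days post coitum and were used at passage 3. All groups shared the mixed strain background C57BL/6J-129P2OlaHsd. In control there were 1 WT, 1 Het and 3 KO libraries, and with doxorubicin (1 μM for 16 h), a DNA-damaging drug, there were 1 WT, 1 Het and 2 KO libraries. One more library, labelled KO embryo 3 with doxorubicin, held the same count as KO embryo 2 for 24062 of 24062 genes and was counted once. The Sall2 allele was targeted in 129P2 stem cells, so that KO cells also carry 129P2 sequence around Sall2 on chromosome 14, and the effect of that segment and that of Sall2 cannot be told apart here. WT and Het rest on 1 embryo each, so that an embryo and its genotype cannot be told apart, and the spread between embryos of a genotype was measured in KO alone. Het was described by its values and was not tested. In bulk RNA, fewer cells of a type and less RNA per cell cannot be told apart.

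The 9 libraries held between 15560728 and 24122414 counts, so that 3 counts, taken as the floor of detection, corresponded to between 0.124 and 0.193 CPM. Levels are given as CPM, counts scaled to the library size with TMM factors. Sall2 (chr14:52311172-52328762, GRCm38) was at 37.6 CPM in WT, 24.0 CPM in Het and between 19.0 and 24.3 CPM in KO without treatment. The control libraries of Het and KO embryo 3 stood apart from the others. The 9 interferon genes of a marker list summed to 1814 CPM in Het and 2010 CPM in KO embryo 3, against between 43.5 and 59.6 CPM in the other control libraries. In the same Het and KO embryo 3 libraries, 10 fibroblast markers summed to 20340 and 16510 CPM, against at least 78860 CPM in the others, and 7 macrophage markers to 283 and 163 CPM, against at most 62.5 CPM. The collagen gene Col1a2 was nevertheless at 2568 CPM or more in each library. The Y-linked genes (Uty, Kdm5d, Eif2s3y and Ddx3y) summed to 195 and 287 CPM in control KO embryos 1 and 3 and to at most 0.123 CPM in the other control libraries. Among KO with doxorubicin, their sum was 86.3 CPM in embryo 1 and 0 in embryo 2.

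Levels between genes were compared as CPM per kilobase of annotated exons, using the median of the control libraries. Nes, which encodes the progenitor intermediate filament nestin, had the highest level of the 29 genes (87.2 CPM per kb), followed by the adhesion molecule Ncam1 (25.3 CPM per kb), the lipid binding protein gene Fabp7 (12.6 CPM per kb) and Moxd1 (9.20 CPM per kb), a monooxygenase of the neural crest. The factors that define the lineage were much lower, with 0.757 CPM per kb for Sox10, 0.491 for Sox2, 0.437 for Tfap2a and 0.348 for Foxd3. The myelin genes Mbp and Mal stood at 0.273 and 0.0404 CPM per kb. Nes and Ncam1 are also transcribed in mesenchymal cells and do not by themselves mark glia. Counts of Ncam1 and L1cam overlap those of other annotated genes over 4.81% and 1.36% of their exon bases, on the opposite strand for Ncam1, and the strand setting of the counting is not given in the sources used here.

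**Figure D1:**
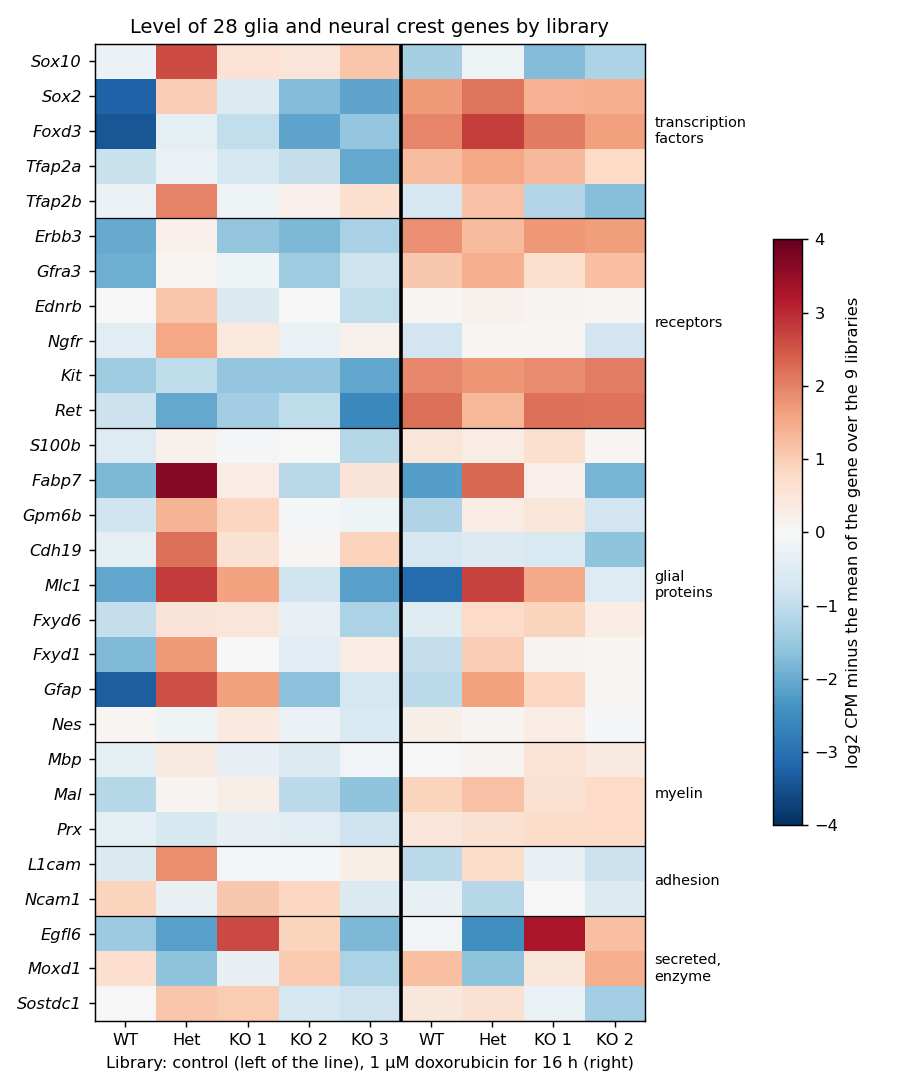
Levels of 28 genes (rows, grouped by role) in the 9 libraries (columns), as log2 CPM minus the mean of the gene over the libraries. Red is above and blue below that mean. Foxd3, Kit and Ret are blue in each control library and red in each treated library, Sox2 and Erbb3 are red in each treated library and in control Het, Sox10 is blue in each treated library, and the Het column is red for Fabp7, Mlc1 and Gfap in both treatments.

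Doxorubicin changed the regulators of the lineage in opposite directions. Over all genotypes, 9 of the 28 genes passed an FDR under 0.01 in the quasi-likelihood test of edgeR, of which 8 rose (Foxd3, Kit, Ret, Erbb3, Sox2, Gfra3, Tfap2a and Prx) and 1 fell (Sox10). The drug changed a large part of the transcriptome, and 21.9% of the 16656 genes tested rose and 18.7% fell. Of the glia and neural crest genes, 28.6% rose and 3.57% fell, so that the share that rose is near that of all genes, and the result lies in the single genes and their sizes of change. Their median log2 fold change was 0.34, against 0.02 over all genes tested. The levels with doxorubicin were all above those in control for 9 genes (32.1%, against 24.8% of all genes), and all below for Cdh19 alone (3.57%, against 21.6%).

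Sox10 (chr15:79154908-79165240), the factor that specifies all peripheral glia, stood without treatment at 1.30 CPM for WT and 9.79 CPM for Het, with the 3 KO embryos, in the order of their numbers, at 2.31, 2.19 and 3.41 CPM. With doxorubicin WT stood at 0.547 CPM, Het at 1.31 CPM and the 2 KO embryos at 0.389 and 0.597 CPM. KO values are given in this order throughout. Each of the 4 embryos measured in both treatments was lower with the drug, although the treated Het library still lay level with untreated WT. The log2 fold change was -2.28 (SE 0.373, edgeR FDR 0.00101). Its counts with doxorubicin were few, from 7 to 27. The call was lost without KO embryo 1 or without KO embryo 2, where the FDR reached 0.0124.

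Sox2 (chr3:34650405-34652461), a factor of neural progenitors that is also found in immature Schwann cells, moved the other way. In control, WT was at 0.299 CPM (6 counts), Het at 7.25 CPM and the KO embryos at 2.46, 1.01 and 0.763 CPM. Treated WT was at 11.9 CPM, treated Het at 16.3 CPM and the treated KO embryos at 9.74 and 9.78 CPM. The control libraries were thus spread over more than an order of magnitude, whereas the treated libraries were close together and all above them. The log2 fold change was 2.84 (SE 0.591, FDR 0.00346), higher in 4 of 4 embryos. Without KO embryo 1 or without KO embryo 2 the gene no longer passed, with an FDR of up to 0.0294.

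Foxd3 (chr4:99656299-99658622), which keeps crest cells and Schwann cell precursors undifferentiated, was counted 3 times in control WT, 46 times in control Het and 24, 9 and 18 times in the control KO embryos. Treated WT had 203 counts, treated Het 363 and the treated KO embryos 199 and 175. In CPM these were at most 1.88 in control and at least 8.03 with the drug, without overlap. Foxd3 had the largest fitted increase of the 28 genes (log2 fold change 3.82, SE 0.454, FDR 0.000189). Tfap2a (chr13:40715302-40738376), which encodes the AP-2α factor of crest induction and early Schwann cells, lay between 0.897 and 3.32 CPM in control and between 7.02 and 11.8 CPM with doxorubicin (log2 fold change 2.13, SE 0.314, FDR 0.00056). Tfap2b, the paralogue of Tfap2a, was low throughout, with from 6 to 43 counts in control and from 1 to 20 with the drug, and its log2 fold change of -1.48 missed the threshold (FDR 0.0398). Of the 5 factors, 3 rose, 1 fell and 1 did not pass.

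Among the receptors, Erbb3, Kit, Ret and Gfra3 rose while Ngfr and Ednrb did not pass. Erbb3 (chr10:128567523-128589652), the neuregulin receptor on which Schwann cell precursors depend, had control levels of 1.39 CPM for WT, 6.84 CPM for Het and 1.90, 1.63 and 2.38 CPM for KO. Its treated levels were 21.4 CPM for WT, 14.3 CPM for Het and 19.9 and 19.0 CPM for KO. The order of Het and WT thus turned between the treatments, in 1 embryo each. The log2 fold change of Erbb3 was 2.95 (SE 0.420, FDR 0.000477).

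Ret (chr6:118151745-118197718), the tyrosine kinase that signals for the GDNF family in enteric and sympathetic crest derivatives, had control levels of 10.2 CPM for WT, 4.42 CPM for Het and 6.98, 8.98 and 3.01 CPM for KO. With the drug these were 84.5 CPM for WT, 46.1 CPM for Het and 86.1 and 83.0 CPM for KO (log2 fold change 3.51, SE 0.305, FDR 4.61e-05). Het was lower than WT in both treatments, unlike for Sox10, Sox2 and Fabp7. Kit (chr5:75574916-75656722), the receptor of stem cell factor that melanoblasts need, was between 0.404 and 0.942 CPM in control and between 7.12 and 8.54 CPM with the drug (log2 fold change 3.57, SE 0.288, FDR 3.33e-05). Gfra3, the co-receptor of artemin, had between 1 and 12 counts in control and between 14 and 29 with doxorubicin (log2 fold change 2.18, SE 0.529, FDR 0.00737). This call was lost without WT, without Het, without KO embryo 1 or without KO embryo 2, with an FDR of up to 0.0643.

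Ngfr, which encodes the p75 neurotrophin receptor of crest cells and immature Schwann cells, lay in control at 4.73 CPM for WT, 19.4 CPM for Het and 8.83, 5.39 and 7.31 CPM for KO. Treated, it lay at 3.83 CPM for WT, 6.73 CPM for Het and 6.90 and 3.81 CPM for KO. It was lower in 4 of 4 embryos but the treatments overlapped (log2 fold change -0.65, SE 0.303, FDR 0.1). Ednrb (chr14:103814625-103844402), the endothelin receptor of melanoblasts and enteric crest cells, lies on the chromosome of Sall2, as does Dct. It was between 3.35 and 3.58 CPM in the treated libraries and had a log2 fold change of 0.12 (SE 0.345, FDR 0.795).

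**Figure D2:**
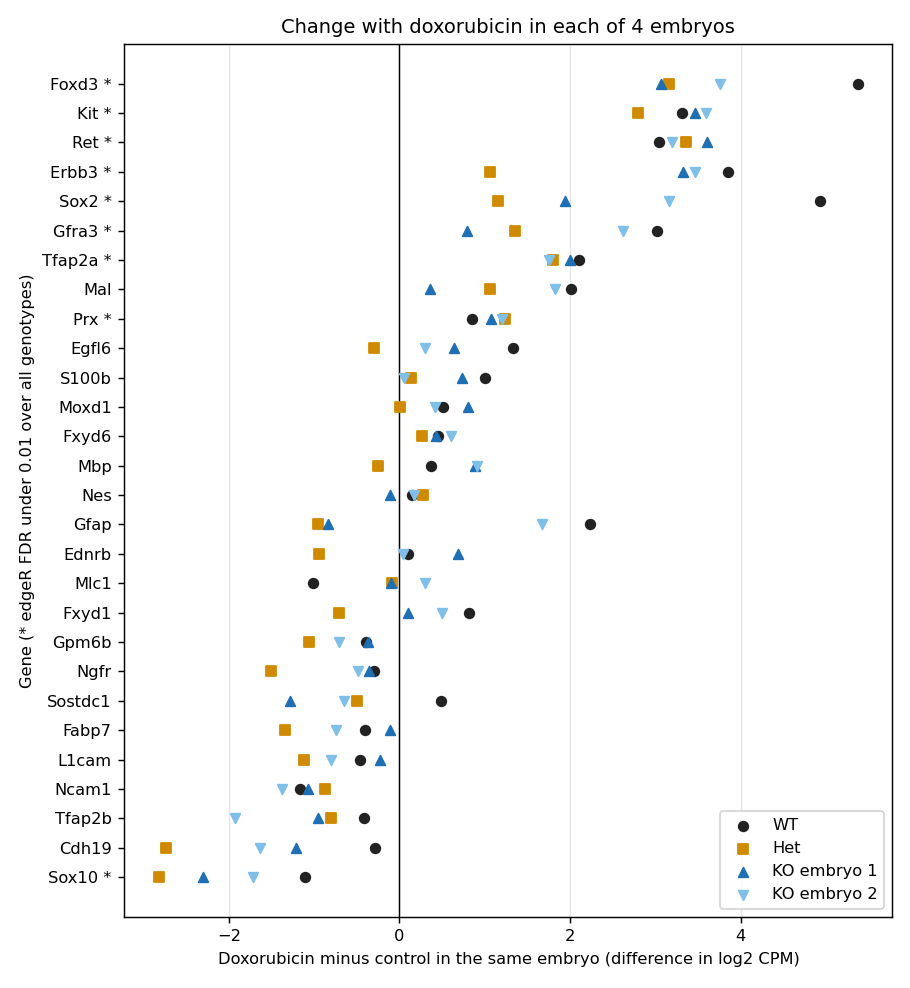
Difference in log2 CPM between doxorubicin and control within each of 4 embryos (x axis) for 28 genes ordered by the fitted change over all genotypes (y axis, asterisks mark an FDR under 0.01). Kit, Ret and Tfap2a changed by similar amounts in each embryo, whereas for Sox2 the difference ran from 1.16 in Het to 4.92 in WT and for Foxd3 from 3.07 to 5.37.

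Of the 9 glial proteins, 0 passed the threshold over all genotypes. Cdh19, a cadherin of the Schwann lineage, lay in control at 0.996 CPM for WT, 6.35 CPM for Het and 2.05, 1.35 and 2.56 CPM for KO, and in treated cells at 0.796 CPM for WT, 0.872 CPM for Het and 0.834 and 0.367 CPM for KO (log2 fold change -1.70, SE 0.484, FDR 0.0158). Fabp7 had a log2 fold change of -0.72 (FDR 0.219) and Gpm6b of -0.49 (FDR 0.221), both lower in 4 of 4 embryos. S100b, Mlc1, Fxyd6, Fxyd1, Gfap and Nes had log2 fold changes between 0.03 and 0.73, with FDR values between 0.139 and 0.949. Because the same embryos were measured in both treatments, the test was repeated with the embryo as a block. Unless stated otherwise, fits with the block leave out the control library of KO embryo 3, which has no treated partner. With the block 12 genes passed, 8 of them higher (against 30.1% of all genes) and 4 lower (27.0% of all genes). The same 9 genes were among them, and Cdh19 (log2 fold change -1.64, FDR 0.0089), Gpm6b (-0.64, FDR 0.00475) and Ncam1 (-1.12, FDR 4.77e-05) fell beside Sox10. Where the control library of KO embryo 3 was left out without the block, Cdh19 and Ncam1 also passed and Gpm6b did not. Ncam1 (chr9:49502136-49798925) was between 81.8 and 261 CPM in control and between 55.0 and 124 CPM with doxorubicin, and without the block it had a log2 fold change of -0.92 (FDR 0.0367).

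Prx (chr7:27499324-27520214), the gene of periaxin, a scaffold protein of myelinating Schwann cells, was between 8.25 and 11.7 CPM in control and between 20.6 and 24.8 CPM with doxorubicin, without overlap and with little spread (log2 fold change 1.17, SE 0.171, FDR 0.000543). Without KO embryo 2 it did not pass (FDR 0.0129). The other myelin genes did not pass. Mal was listed with between 1 and 9 counts in control and between 10 and 18 with the drug (log2 fold change 1.74, FDR 0.0304), and Mbp was between 1.96 and 3.77 CPM in control and between 2.98 and 4.34 CPM with the drug (log2 fold change 0.46, FDR 0.186). The adhesion molecule L1cam was lower in 4 of 4 embryos (log2 fold change -0.72, FDR 0.0362). The secreted proteins Egfl6 and Sostdc1 and the enzyme Moxd1 had log2 fold changes of 1.08, -0.66 and 0.63, with FDR values of 0.341, 0.547 and 0.251.

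The sequences upstream of the listed genes were searched for the binding letters of 2 of the factor families in the list. RefSeq promoters (GRCm38.p6) were held for 21 of the 29 genes, and the 250 bases before the transcription start were read on the strand of the gene. The letters GCCNNNGGC, bound by AP-2 factors such as TFAP2A, occurred on either strand in 4509 of all 32851 such windows (13.7%) and in 6 of the 24 windows of the glia and neural crest genes. The letters ACAAAG, bound by SOX factors, occurred in 5408 windows (16.5%) and in 4 of the 24. Sites of both motifs can share an end letter, and the motifs were counted separately. A match describes the sequence and is no evidence of binding. The windows of Prx (chr7:27499074-27499323, plus strand), with 2 AP-2 matches, and of Sox2 (chr3:34649745-34649994, plus strand), with 1 SOX match, are shown because both genes rose and hold a match. Capitals mark the matches, from base 177 and from base 232 in Prx and from base 45 in Sox2.
Prx: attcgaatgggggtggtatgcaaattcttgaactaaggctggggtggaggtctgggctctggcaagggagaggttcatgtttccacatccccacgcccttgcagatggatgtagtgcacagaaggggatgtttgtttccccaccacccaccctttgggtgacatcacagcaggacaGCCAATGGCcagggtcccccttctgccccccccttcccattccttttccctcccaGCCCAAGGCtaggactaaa
Sox2: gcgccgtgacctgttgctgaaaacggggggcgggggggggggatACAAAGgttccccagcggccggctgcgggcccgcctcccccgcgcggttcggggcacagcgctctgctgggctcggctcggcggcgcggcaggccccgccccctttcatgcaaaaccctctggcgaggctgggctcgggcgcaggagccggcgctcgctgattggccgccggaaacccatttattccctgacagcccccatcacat
Kit, which rose, held 1 AP-2 match in each of its 2 RefSeq windows, which overlap and share the same site, and Gpm6b held both motifs. The windows with an AP-2 match were those of Ednrb, Gpm6b, Kit, Mlc1 and Prx. Foxd3 and Tfap2a rose and held no match, and Erbb3, Ret and Gfra3 had no window.

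Without treatment, the Het library was the highest of the control libraries for most of the glia and neural crest genes. It had the highest level of the 5 control libraries for 21 of the 28 genes (75%), while it was the highest for 22.6% of all genes tested. Since the genes were chosen with earlier results of these data known, the shares describe the list and do not test it. KO embryo 1 was highest for 5 of the genes (20.1% of all genes tested), KO embryo 2 for 1 (12.8%), WT for 1 (16.0%) and KO embryo 3 for 0 (28.5%). Among the 23 genes at 1 CPM or more in a control library, Het exceeded the next library by at least 2 times for 11 (47.8%), and it did so for 2.64% of all 13756 such genes. The summed level of the 29 genes, to which Nes contributes most, was nevertheless highest in KO embryo 1 (1277 CPM, against 1045 CPM in Het), and 44 other genes of Schwann cells and glia summed to 581 CPM in Het, 652 CPM in WT and 955 CPM in KO embryo 1. The 11 genes were Sox10, Sox2, Erbb3, Tfap2b, Ednrb, Ngfr, Fabp7, Cdh19, Mlc1, Fxyd1 and L1cam. Of these, Fxyd1 and Tfap2b reached 1 CPM in Het alone, at 2.05 and 1.76 CPM. The other control libraries were at most at 0.718 and 0.628 CPM. Their entry was thus decided by the library found to be high, and the filter admits genes in this way among all genes too.

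Fabp7 (chr10:57784881-57788450), the lipid binding protein of radial glia and Schwann cell precursors, differed most. It was at 160 CPM in Het, 8.84 times the next control library, against 3.58 CPM for WT and 15.8, 5.84 and 18.1 CPM for KO. With doxorubicin it was at 63.3 CPM for Het, 2.69 CPM for WT and 14.6 and 3.44 CPM for KO. Among the 4 embryos measured in both treatments, the order Het, KO embryo 1, KO embryo 2 and WT was the same in each.

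Gfap (chr11:102887336-102900912), the intermediate filament of astrocytes and non-myelinating Schwann cells, was at 17.4 CPM for Het, 0.199 CPM for WT and 9.09, 0.842 and 1.70 CPM for KO without treatment. Mlc1 (chr15:88955884-88979007), a membrane protein of astrocyte end feet, was at 8.52 CPM for Het, 0.199 CPM for WT and 3.75, 0.617 and 0.179 CPM for KO. For both genes Het and KO embryo 1 stood above the other control libraries, and those 2 embryos remained the highest with doxorubicin, at 8.91 and 5.06 CPM for Gfap and 7.99 and 3.51 CPM for Mlc1. Fxyd1, a regulator of the sodium pump, had 50 counts in the control Het library and from 2 to 16 in the others.

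Not every gene of the list was high in Het. Egfl6 (chrX:166523007-166585720), which encodes a secreted matrix protein with EGF repeats, was counted 2 times in control Het, 4 times in control WT and 96, 25 and 3 times in the control KO embryos, so that the gene was detected above a handful of counts in KO embryos 1 and 2 alone. Moxd1 was at 12.1 CPM in Het and 15.2 CPM in KO embryo 3, against between 29.4 and 76.3 CPM in the other control libraries. Ncam1 was at 100 CPM in Het and 81.8 CPM in KO embryo 3, against between 219.5 and 261 CPM in the others. Moxd1, Ncam1 and Ret were thus low in the same pair of control libraries in which fibroblast markers were low and interferon genes high. KO embryo 3 shared those marker values with Het but was at 18.1 CPM for Fabp7, 3.41 CPM for Sox10 and 0.179 CPM for Mlc1. The part of the marker differences in the levels of Het was not tested.

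With doxorubicin, the Het library was the highest of the 4 treated libraries for 15 of the 28 genes, beside 43.7% of all genes, and KO embryo 1 was highest for 9, beside 24.1%. Erbb3 was lowest in Het, Cdh19 lay between 0.796 and 0.872 CPM in Het, WT and KO embryo 1, and Sox10 was at 1.31 CPM in Het against at most 0.597 CPM in the others. Without the Het libraries and the control library of KO embryo 3, 10 genes passed for doxorubicin, the same 9 and Ncam1.

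**Figure D3:**
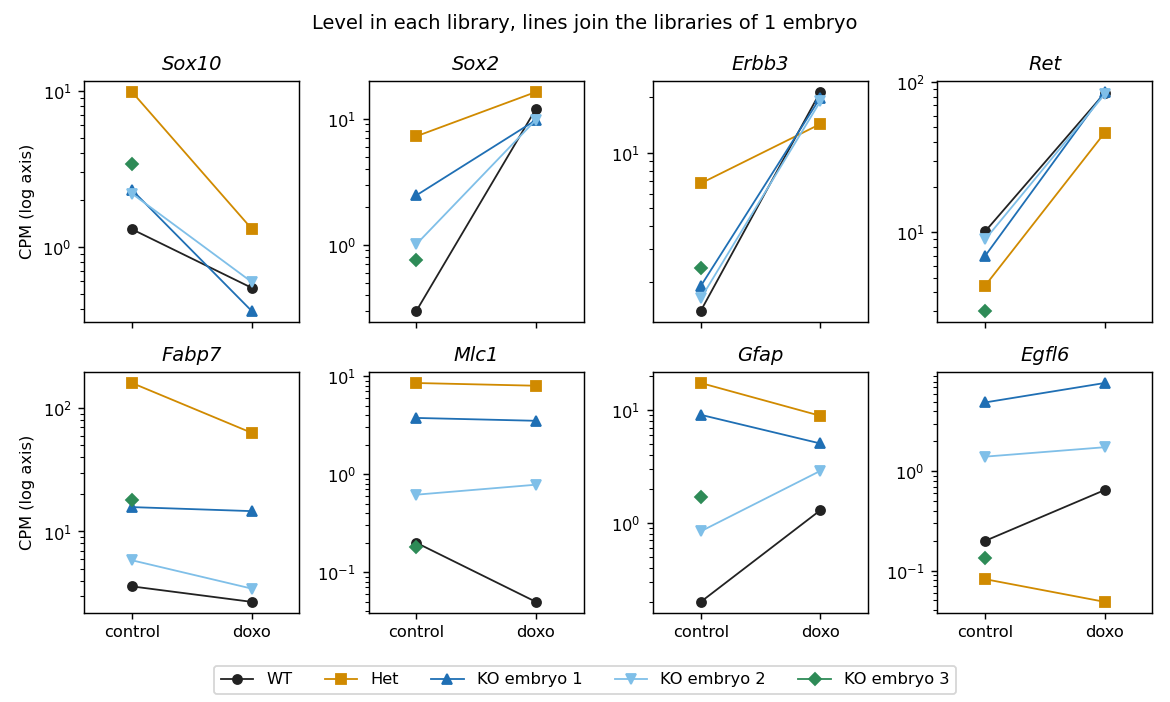
CPM of 8 genes (log axes) in control and with doxorubicin, with a line joining the libraries of each embryo and KO embryo 3 measured in control alone. Sox2, Erbb3 and Ret converge upward and Sox10 falls in each line, whereas Fabp7, Mlc1 and Egfl6 keep the order of the embryos in both treatments.

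In control, no difference between KO and WT was called in these genes. At an FDR under 0.01, 0 of the 25 genes passed in edgeR's quasi-likelihood test and 0 had an unadjusted p under 0.05 (0.0691% of all genes tested), while 0.0% of the 14470 genes tested were called in either direction. DESeq2 also called 0 of them, with 3 at an unadjusted p under 0.05 (0.65% of all genes). RUVg, which takes out a factor of unwanted variation, followed by edgeR's exact test called 0 of them and 1.13% of all genes, with 12 of the 25 at an unadjusted p under 0.05, beside 14.6% of all genes. The fitted log2 fold change was positive for 17 of the 25 genes and its median was 0.65, against 0.04 over all genes, and the lone WT library enters each of these values. The largest fitted values were those of Gfap (4.27, SE 1.96, FDR 1), Egfl6 (3.41, SE 2.25, FDR 1) and Mlc1 (2.91, SE 2.13, FDR 1). For these genes the KO embryos differed from each other by more than 10 times, with 177, 15 and 38 counts for Gfap and 73, 11 and 4 for Mlc1, against 4 in WT for both. The spread between the libraries of this comparison, as edgeR's common coefficient of variation, was 0.488, and 0.154 without KO embryo 3. The comparison with doxorubicin, which has no separate library of that embryo, had 0.144.

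With doxorubicin, 5 of the 26 genes tested were higher in KO than in WT (Egfl6, Mlc1, Fabp7, Gpm6b and Fxyd6) and 0 were lower, while 0.118% of the 15256 genes tested were called higher and 0.0787% lower. These calls rest on 1 WT and 2 KO libraries, in genes chosen with earlier results of these data known. The fitted log2 fold changes in control were also positive, without a call. They were 3.41 for Egfl6, 2.91 for Mlc1, 1.92 for Fabp7, 1.13 for Gpm6b and 0.78 for Fxyd6. Calls with doxorubicin alone thus do not show a difference between the treatments. The interaction of genotype and treatment, given below, called none of the 5 genes. Egfl6 was at 0.647 CPM in WT and 7.73 and 1.75 CPM in KO embryos 1 and 2 (log2 fold change 2.83, SE 0.477, FDR 4.25e-06). Mlc1 had 1 count in WT and 63 and 17 in KO embryos 1 and 2 (log2 fold change 5.22, SE 0.901, FDR 8.71e-06). As a ratio of CPM, Mlc1 in KO embryo 2 was 15.7 times WT with a 95% counting interval from 2.46 to 656, from the exact binomial method.

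Fabp7, at 2.69 CPM in WT and 14.6 and 3.44 CPM in KO embryos 1 and 2, had a log2 fold change of 1.72 (SE 0.337, FDR 0.000251). Gpm6b (chrX:166238911-166388988), which encodes a proteolipid of neurons and glia, was at 10.3 CPM in WT and 33.4 and 14.1 CPM in KO (log2 fold change 1.19, SE 0.250, FDR 0.00129). Fxyd6 (chr9:45370185-45396159), a regulator of the sodium pump, was at 13.3 CPM in WT and 34.9 and 23.0 CPM in KO (log2 fold change 1.12, SE 0.234, FDR 0.00129). In all 5 genes KO embryo 1 was the higher of the KO embryos, and for Fabp7 the ratio of KO embryo 2 to WT was 1.28, with a counting interval from 0.892 to 1.86 that holds 1. Gfap did not pass (log2 fold change 1.60, SE 0.432, FDR 0.0659).

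Each of the 5 calls was lost in a single fit of all libraries, with DESeq2 and where a gene had to reach 5 counts in 2 libraries. The 5 genes met that count filter, which tested 15916 genes in place of 15256, so that their own counts did not remove them. Leaving out KO embryo 1 or KO embryo 2 also gave 0 calls, but it leaves 1 library in each group and had to be fitted together with the other groups, so that its effect cannot be told apart from that of the single fit. The treated Het library, which was not tested, was above both KO libraries for Fabp7 (63.3 CPM) and Mlc1 (7.99 CPM) and had 1 count for Egfl6, against 13 in WT. The 4 Y-linked genes were also called higher in KO in this comparison, and KO embryo 1 was the treated KO library with Y-linked counts. The part of embryo sex was not tested, and Egfl6 and Gpm6b lie on the X chromosome. No factor or receptor passed, with log2 fold changes of -0.30 (SE 0.272) for Sox2, -0.14 (SE 0.230) for Erbb3, -0.01 (SE 0.207) for Ret and 0.06 (SE 0.289) for Kit, each with an FDR of 1.

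**Figure D4:**
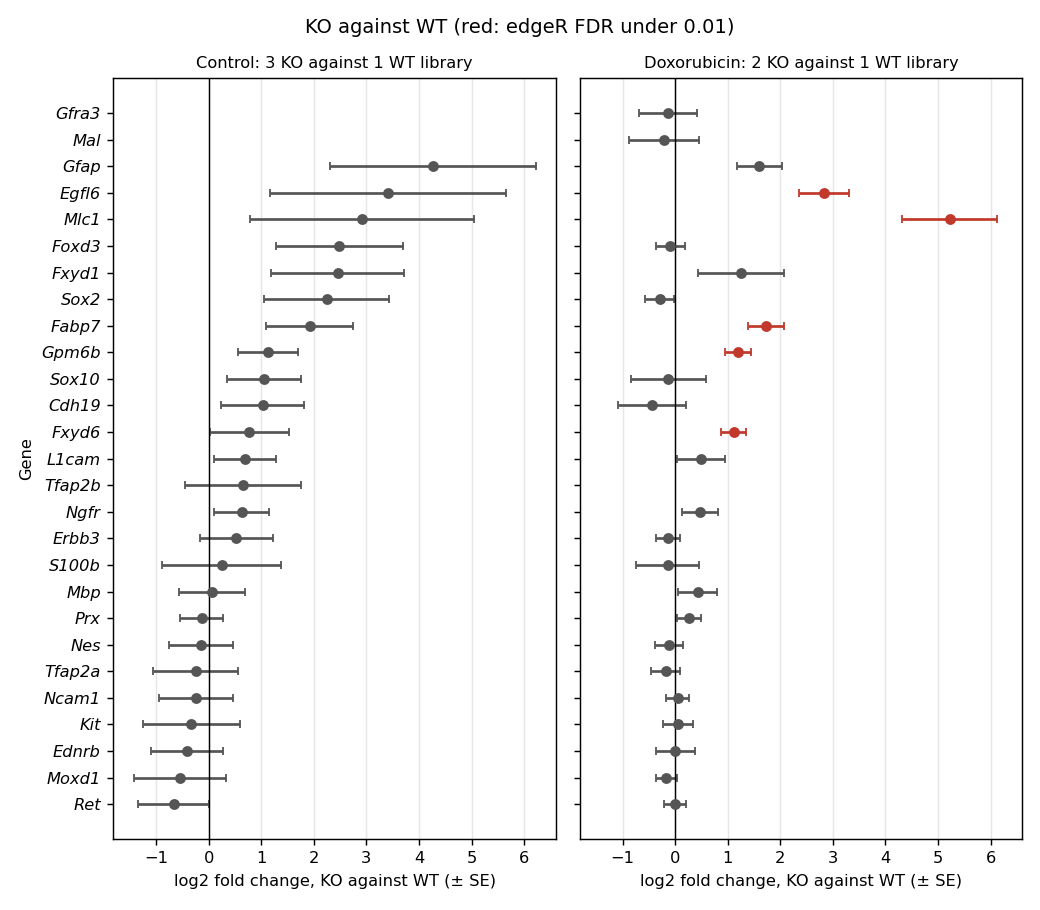
Fitted log2 fold change of KO against WT with its standard error (bars) in control (left, 3 KO libraries) and with doxorubicin (right, 2 KO libraries), red where the FDR was under 0.01. In control the errors are wide and none is red. With doxorubicin the 5 red genes are glial or secreted proteins, and the factors and receptors scatter around 0.

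Whether the change with doxorubicin differed between WT and KO was tested with the interaction of genotype and treatment. In edgeR, 0 of the 27 genes tested passed, 1 (Foxd3) had an unadjusted p under 0.05, and 0.0% of the 15905 genes tested were called. Sox2 had an interaction of -2.51 on the log2 scale (SE 1.11, FDR 1), that is a smaller rise in KO. With the embryo as a block Sox2 was the 1 gene of the list that passed (-2.81, SE 0.586, FDR 0.0039), while 0.00648% of all genes were called higher and 0.0389% lower. In the WT embryo Sox2 with doxorubicin was 40.0 times control, from 6 to 240 counts with a counting interval from 18.1 to 110 times, and it was 3.95 times (2.85 to 5.56) in KO embryo 1, 9.68 times (5.98 to 16.7) in KO embryo 2 and 2.25 times (1.87 to 2.71) in Het. The embryos differed in their control level more than in their level with the drug, and Sox2 did not pass where the repeated library was paired with KO embryo 3. That library had 0 Y-linked counts, against 6397 in control KO embryo 3 and 1 in control KO embryo 2, so that by sex it pairs with KO embryo 2. Foxd3 had an interaction of -2.54 (SE 0.969, FDR 1) and of -2.58 with the block (SE 0.762, FDR 0.334).

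Some genes that work with these regulators also passed the threshold with doxorubicin. Of 15 genes for ligands of the receptors, 12 were tested, of which 6 rose and 2 fell, beside 21.9% and 18.7% of all genes. With the embryo as a block 5 rose and 4 fell, beside 30.1% and 27.0% of all genes. Gdnf, the ligand that signals through Ret, was between 0.647 and 2.13 CPM in control and between 39.1 and 45.7 CPM with the drug (log2 fold change 4.94, SE 0.317, FDR 1.28e-05), so that a receptor and its ligand both rose. Likewise Kitl, the ligand of Kit, rose from between 3.32 and 11.9 CPM to between 17.2 and 42.0 CPM (log2 fold change 2.01, FDR 0.000911), and Artn, the ligand bound by Gfra3, had a log2 fold change of 2.41 (FDR 8.2e-05). Nrg2, a neuregulin, was at most 0.328 CPM in control and at least 6.01 CPM with the drug (log2 fold change 5.46, FDR 2.57e-05), and Nrtn also rose. Nrg3, with at most 1 count in each control library, passed (FDR 0.00518) but not with the embryo as a block (FDR 0.0115). Nrg1, the neuregulin known to keep Schwann cell precursors alive, did not pass (log2 fold change -0.79, FDR 0.0336), but fell with the embryo as a block (-0.95, FDR 0.00023). Ntf3, a neurotrophin and ligand of Ngfr, fell (log2 fold change -1.64, FDR 0.000875).

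Of 44 other genes of Schwann cells and glia, 14 rose (31.8%, beside 21.9% of all genes) and 3 fell (6.82%, beside 18.7%). With the embryo as a block 17 rose (38.6%, beside 30.1%) and 9 fell (20.5%, beside 27.0%), so that the counts were not far from those of all genes. Those that rose included Pou3f1 (log2 fold change 6.16, FDR 7.09e-05), the factor of promyelinating Schwann cells, Olig2 (5.91, FDR 6.94e-05), the factor of oligodendrocyte precursors, Sox8 (4.12, FDR 0.000208), a close paralogue of Sox10, and Egr2 (1.32, FDR 0.00333), the factor of myelination. Bcan, Cadm4, Cmtm5, Dhh, Hepacam, Itga6, Itgb4, Aldh1l1, Olig1 and Pllp rose as well. Those that fell were Gjc3 (-4.57, FDR 0.00235), Scn7a (-2.26, FDR 0.000585) and Lgi4 (-1.95, FDR 0.00501), which are typical of Schwann cells and which were, like Sox10, higher in Het than in any other control library. In control Olig2 had from 0 to 6 counts and Pou3f1 from 2 to 28, and Gjc3 had at most 1 count with the drug. The sizes of change of these genes are thus imprecise.

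Of 16 other neural crest genes, 8 rose and 2 fell, beside 21.9% and 18.7% of all genes, and with the embryo as a block 8 rose and 5 fell, beside 30.1% and 27.0%. Among those that rose were Tfap2c (log2 fold change 6.76, FDR 3.21e-05), another AP-2 gene, and Phox2a (4.30, FDR 0.000101), a factor of autonomic neurons, together with Hand2, Msx1, Msx2, Nr2f1 and Pax7. Tfap2c had from 0 to 2 counts and Phox2a from 1 to 5 counts in control, so that their sizes of change are imprecise. The crest migration factors Snai1 (-1.70, FDR 0.000344) and Snai2 (-1.69, FDR 0.000118) fell. Of 10 melanocyte genes 4 were tested and Trpm1 rose, and Tyr, Tyrp1 and Gpr143 were at 0 in each control library, as was Dct in all but KO embryo 3, where it had 1 count. Kit thus rose in libraries where the enzyme genes Tyr, Tyrp1 and Dct were at or under the floor. Other genes of the melanocyte list were detected in each library, with at least 55 counts for Mitf, 14 for Pmel and 6 for Slc24a5. Pmel was between 0.573 and 1.46 CPM in control and between 1.88 and 4.31 CPM with the drug. Mitf was between 4.52 and 6.60 CPM in control and between 3.06 and 3.92 CPM with the drug. The presence of pigment cells was not tested. Of the markers of other cell types, the epithelial genes Epcam and Krt5, the neuronal gene Elavl3, the endothelial gene Emcn and the macrophage gene Cd68 also rose with doxorubicin, whereas Krt18, Map2, Csf1r and Pdgfrb fell. Between WT and KO in control, 0 genes of these lists passed the threshold. With doxorubicin Emcn was lower in KO, at 18.9 and 20.02 CPM against 73.8 CPM in WT (log2 fold change -1.93, edgeR FDR 5.49e-20), and beside it the 4 Y-linked genes were called among the lists. In control Emcn was also lower in KO, without a call, at 10.07, 11.45 and 13.59 CPM against 40.53 CPM in WT (log2 fold change -1.76). Its interaction of genotype and treatment was -0.14, without a call. Het was at 12.25 CPM in control and 16.95 CPM with the drug, and WT rests on 1 embryo.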

How the data were processed

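RNA-Seq libraries were made from rRNA-depleted RNA of WT, Het and KO MEFs, in control or with doxorubicin. Per sample, 4 FASTQ files were pooled by the authors, who aligned reads to mm10 with HISAT2 and deposited raw counts per gene from HTSeq, without normalization. The tool names come from the submitters' processing notes and the paper. Columns were assigned to groups by their names, 10 in all, with the identical pair counted once.

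The deposited counts were tested with edgeR 4.0.16 (with limma 3.58.1) in R 4.3.3. Libraries were scaled with TMM, low genes removed with filterByExpr, and groups compared by the two-sided quasi-likelihood test with Benjamini-Hochberg adjustment over all genes tested, at an FDR under 0.01. KO was compared with WT per treatment, doxorubicin with control with genotype as a factor, and the interaction in WT and KO. Log2 CPM used a prior count of 2. DESeq2 1.42.0, RUVg with 1 factor, other filters and thresholds, library sizes without the pre-ribosomal transcript Rn45s (0.0387% to 3.17% of counts), the embryo as a block and embryos left out in turn were alternatives. The code of the fits was run on simulated counts with large known changes, a small spread between libraries and no genes at few counts. It does not show how the fits behave for genes at few counts or with a wider spread. Counting intervals (95%) and the floor of 3 counts cover counting error only, since reads are not independent molecules. Totals ran from 15560728 to 24122414 counts, and the genes at under 20 counts are the least precise.

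Replicate numbers were taken as embryos. Among the 4 embryos with both treatments, deviations from the treatment mean correlated best with the same embryo in 4 of 4 cases (r from 0.475 to 0.727 across genes). Control KO embryo 3 was not a candidate in this check. For WT and Het, with 1 embryo each, a match of embryo and of genotype cannot be told apart. Control KO embryo 2 had an r of 0.481 with its treated library and of 0.405 with treated WT. No label says that libraries of a group came from separate embryos in words, so p-values measure the spread between these libraries. The members and the gene lists were chosen with earlier results of these data known. All members are named, and from the other lists the genes past the threshold or otherwise up to 3 by level, apart from some genes that are not reported here. Coordinates are of the GENCODE annotation of GRCm38, the assembly of mm10, and promoters are of RefSeq.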

Additional observations from a re-analysis of the deposited data

Results flagged for a closer look

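The responses of 2 genes to doxorubicin stood out between genotypes. Gfap, the glial intermediate filament, moved in opposite directions in WT and Het, by a counting interval that excludes 1 in both. It was 6.49 times control in the WT embryo (4 to 26 counts) and 0.512 times control in the Het embryo (425 to 184 counts), and this difference between single embryos was not tested. The KO embryos were split, with 0.557 times in embryo 1 and 3.44 times in embryo 2. Sox2 differed between WT and KO by the interaction in the edgeR fit with the embryo as a block, by -2.81 on the log2 scale (FDR 0.0039). The WT value rests on 6 counts in 1 control library, and the fit without the block gave an FDR of 1.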

How the results depend on the processing

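With KO against WT in control, 0 genes of the list passed in each of the alternatives, DESeq2 and RUVg included. With doxorubicin, 5 genes passed, and 3 at an FDR of 0.001. There were 0 with DESeq2, 0 with at least 5 counts in at least 2 libraries, 0 in a single fit of all libraries, and between 0 and 0 with a KO library left out. These last fits also took in all groups, since a lone KO library is assumed to vary like the others, and the single fit without any library left out already gave 0. For doxorubicin against control, 9 genes passed, 14 at an FDR of 0.05 (where 29.3% of all genes rose and 26.3% fell), and between 5 (without KO embryo 2) and 11 (without KO embryo 3) with an embryo left out. Erbb3, Foxd3, Kit, Ret and Tfap2a passed in 15 of 15 alternatives. The embryo as a replicate block, which also leaves out the control library of KO embryo 3, gave 12, adding Cdh19, Gpm6b and Ncam1 and losing none. Of these, Cdh19 and Ncam1 were also among the 11 without KO embryo 3 and without the block. The 2 blocks chosen after the data were seen gave 15 (no Het libraries) and 8 (the identical library as KO embryo 3, whose Y-linked counts it does not share). The interaction gave 0 genes, 1 (Sox2) with the replicate block and 0 with the identical library as KO embryo 3. The block changed no other call of the list. For KO against WT within a treatment, no paired analysis was possible because WT and KO share fewer than 2 numbers. The count of 21 genes highest in the control Het library was 21 with DESeq2 size factors and with no filter. No called fold change changed its sign in these alternatives. Differences between genotypes are limited by the single WT and Het embryos, and for genes at a few counts also by depth.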
